A study of Mus musculus with 8 samples.

Results

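The genes described here are 10 genes of lipopolysaccharide (LPS) sensing and endotoxin tolerance: Lbp, Cd14, Tlr4, Ly96, Tlr2, Myd88, Nfkb1, Irak3, Tnfaip3 and Nfkbia. They were taken by gene name from the 24545 rows of the expression table, where each had a single row of its own. RNA was sequenced from whole liver of male C57Bl/6J mice, either wild type or carrying an ApoE-Cyp7a1 transgene that is described as liver specific. The enzyme CYP7A1 starts the conversion of cholesterol to bile acids. Mice of each genotype were left untreated or were injected with LPS at 1.5 mg/kg each day over 7 days, which gave 4 groups of 2 libraries, 8 in all, described by the authors as biological replicates. The age of the mice, the interval between the last injection and the harvest, the species of the transgene, its founder line and whether untreated mice received a vehicle are not stated in the sources used here. Livers were frozen and pulverized whole, so every value is an average over all cell types of the organ.

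LPS is a glycolipid of the outer membrane of Gram-negative bacteria. In blood it is bound by LBP, an acute-phase protein made by hepatocytes, and is passed through CD14 to the receptor complex of TLR4 and MD-2, the product of Ly96. The adaptor MyD88 then links the receptor to kinases of the IRAK family, and NF-kB subunits enter the nucleus and switch on inflammatory genes. Some of the induced genes feed back on the pathway: IRAK3 (IRAK-M) blocks the IRAK kinases, A20 (the product of Tnfaip3) removes ubiquitin chains that carry the signal, and IkB alpha (the product of Nfkbia) holds NF-kB in the cytoplasm. Endotoxin tolerance is the state in which cells that have met LPS before answer a later dose with less cytokine, and it is known best in macrophages, of which the Kupffer cells are the resident population of the liver.

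NF-kB binds DNA at kappaB sites, and the stretches of the members' promoters that match the kappaB consensus are shown because several members are textbook NF-kB targets. RefSeq promoter windows on build GRCm38.p6, from 250 bases before to 50 bases after a transcription start, were searched on both strands. There were 7 windows for 5 members (Tlr2, Myd88, Irak3, Tnfaip3 and Nfkbia). Each stretch is 30 bases on the gene's own strand, 5′ to 3′, with the matching bases in capitals, and the distance is from the first matching base to the start site. That start is the one of the RefSeq window. The gene spans given further below are from GENCODE and can begin further upstream. The Tlr2 and Tnfaip3 stretches lie wholly or partly inside those spans, and the Myd88 window lies wholly inside the span of its gene.
Tlr2, chr3:83841761-83841790, minus strand, 173 bases before the start: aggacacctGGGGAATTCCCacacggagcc
Tlr2, chr3:83841597-83841626, minus strand, 8 bases before the start: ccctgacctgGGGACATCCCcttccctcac
Tnfaip3, chr10:19015516-19015545, minus strand, 125 bases before the start: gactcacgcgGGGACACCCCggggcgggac
Tnfaip3, chr10:19015403-19015432, minus strand, 12 bases before the start: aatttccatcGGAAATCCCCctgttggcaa
Nfkbia, chr12:55492657-55492686, minus strand, 29 bases before the start: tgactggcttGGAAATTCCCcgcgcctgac
The first Tlr2 stretch holds 2 overlapping matches, which is why 11 of its bases are in capitals. Of all 32851 windows in the table, 2779 (8.46%) held a match. The windows of Myd88 and Irak3, and a second window of Tnfaip3, held none, which says only that these letters are not in those windows. A match describes the letters of the promoter and does not show that NF-kB was bound there.

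Values are FPKM, a fragment density per length of transcript and per mapped fragment, computed by the authors. FPKM is scaled by transcript length, and levels of different genes are set side by side here on that basis. The scaling does not remove reads of overlapping genes, and the hepatocyte marker Alb is listed at 0 in all 8 libraries. Comparisons between genes are therefore approximate. The depth of the libraries is unknown because no fragment counts were used here. Summed over all rows, untreated libraries held 500765 to 580051 FPKM and LPS libraries 406668 to 469644 FPKM. The SD of the log2 differences between the replicates of a group ranged from 0.233 in wild type with LPS to 0.484 in untreated wild type. In that last group, replicate 1 stood apart from its partner in some inflammatory genes that were chosen after their values were seen: Cxcl1 was at 84.4 against 7.01 FPKM and Socs3 at 21.8 against 3.75 FPKM. Transgenic with LPS was nearly as spread (SD 0.467), and its replicate 1 was also apart in Socs3, at 20.9 against 4.89 FPKM. Cyp7a1, the gene of the transgene, was between 19.9 and 49.1 FPKM in the 4 wild-type libraries and between 64.7 and 78.5 FPKM in the 4 transgenic ones, so the libraries did not overlap by genotype. Tests were run with limma on log2(FPKM + 1), in a single fit of all 8 libraries and 11463 features. A difference was called when its 2-sided p, adjusted over all features by the Benjamini-Hochberg method, was under 0.05. Differences are given as log2 of FPKM + 1, which understates the change of genes near or under 1 FPKM, so ratios of the group means in FPKM are given beside them.

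With LPS, 6 of the 10 members rose in wild-type liver and 6 rose in transgenic liver, and none fell in either. Cd14, Tlr4, Tlr2, Irak3 and Tnfaip3 rose in both genotypes. Nfkb1 passed the test in wild type alone and Nfkbia in transgenic alone, and neither of these genotype differences was called when it was tested itself. Of all features tested, 21.6% were called in wild type and 26.5% in transgenic in either direction, and 16.2% and 16.0% were called as higher with LPS. Features were tested if they reached 1 FPKM in 2 or more of the 8 libraries. Tlr4, Tlr2 and Irak3 were under 1 FPKM in every untreated library and met this through their LPS libraries alone. With no filter, 5 members were called in wild type and 6 in transgenic, beside 2792 and 3073 of 17294 features. Both LPS libraries were above both untreated ones for 6 of the 10 members in wild type and for 10 of 10 in transgenic, and below them for 1 (Lbp) in wild type. Over all features tested, both LPS libraries were above both untreated ones for 30.5% in wild type and 31.8% in transgenic, and below them for 34.0% and 36.2%. The median difference of the members was 0.64 in wild type and 0.91 in transgenic, beside -0.05 and -0.04 over all features tested. No genotype difference of a member was called in either treatment. In whole liver, a change in the number of cells of a type and a change in RNA per cell cannot be told apart, and this holds for each LPS result on these genes.

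**Figure D1:**
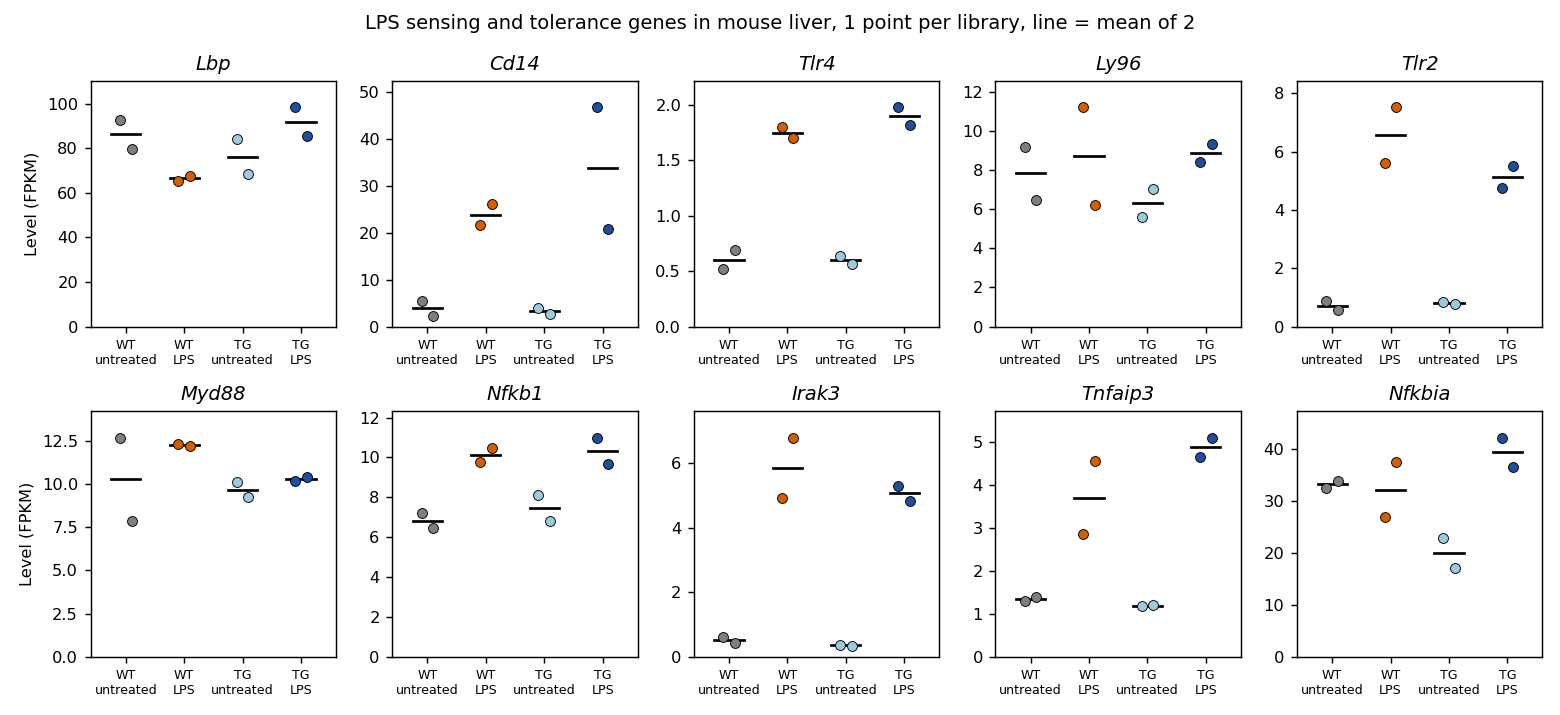
Level of each of the 10 genes in FPKM (linear axes from 0, different scale for each gene) in wild-type (WT) and transgenic (TG) liver, untreated or with LPS, with 1 point per library and a line at the mean of 2. Cd14, Tlr4, Tlr2, Irak3 and Tnfaip3 had every LPS library above every untreated library, while Lbp in wild type ran from 79.8 to 92.7 FPKM untreated and from 65.3 to 67.7 FPKM with LPS.

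Lbp, on chromosome 2 from 158306493 to 158332852 (GRCm38, the assembly also called mm10), was the most abundant member in all 8 libraries. It was measured at 92.7 and 79.8 FPKM in untreated wild type and at 65.3 and 67.7 FPKM with LPS. Transgenic liver held 84.1 and 68.4 FPKM untreated and 98.3 and 85.4 FPKM with LPS. The LPS libraries thus lay below the untreated ones in wild type and above them in transgenic liver, without overlap in either. Neither difference passed the limma test, at -0.37 in wild type (SE 0.17, adjusted p = 0.168) and 0.27 in transgenic (SE 0.17, adjusted p = 0.281). The difference between these responses was 0.64 (SE 0.24, 95% interval 0.07 to 1.20), with an unadjusted limma p of 0.0315 and an adjusted p of 0.444. After LPS alone, transgenic liver held 1.38 times the Lbp level of wild type, 91.8 ± 9.12 against 66.5 ± 1.67 FPKM (SD, n = 2), a difference that also failed the adjusted test (adjusted p = 0.369). With quantile normalization the transgenic response was 0.59 (adjusted p = 0.0443), and it was not called under the other alternatives run.

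Cd14 encodes the membrane and soluble co-receptor that hands LPS to the TLR4 complex. It lies on chromosome 18 from 36725067 to 36726798. Its level was 5.36 and 2.35 FPKM in untreated wild type and 21.7 and 26.0 FPKM with LPS, and 3.93 and 2.63 FPKM in untreated transgenic liver and 46.7 and 20.8 FPKM with LPS. All LPS libraries were above all untreated libraries, and replicate 1 of transgenic with LPS was well above the other 3 LPS libraries. The group means differed 6.19-fold in wild type and 10.3-fold in transgenic liver. Cd14 had the largest difference of the 10 members in both genotypes, 2.42 in wild type (SE 0.41, adjusted p = 0.00488) and 2.93 in transgenic (SE 0.41, adjusted p = 0.00237). Leaving out each library of the compared groups in turn gave differences from 1.96 to 2.89 in wild type and from 2.36 to 3.50 in transgenic.

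Tlr4, the signalling receptor for LPS (chromosome 4, 66827584 to 66930284), was expressed at a low level throughout. It was at 0.522 and 0.688 FPKM in untreated wild type and at 1.80 and 1.70 FPKM with LPS. Transgenic values were 0.638 and 0.567 FPKM untreated and 1.98 and 1.82 FPKM with LPS. Treated and untreated libraries were cleanly apart, and the 4 untreated libraries of the 2 genotypes overlapped. Tlr4 rose by 0.78 in wild type (SE 0.13, adjusted p = 0.00388) and by 0.85 in transgenic liver (SE 0.13, adjusted p = 0.00288), which is 2.89-fold and 3.15-fold in mean FPKM. With quantile normalization the wild-type difference was 0.39 and was not called (adjusted p = 0.0707).

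Ly96, on chromosome 1 from 16688051 to 16709611, encodes MD-2, the subunit of the TLR4 complex that holds the lipid part of LPS. Its values were 9.18 and 6.48 FPKM in untreated wild type and 11.2 and 6.20 FPKM with LPS, and 5.60 and 7.01 FPKM in untreated transgenic liver and 8.40 and 9.31 FPKM with LPS. The treatments overlapped in wild type, and in transgenic liver the LPS libraries were the higher pair. Ly96 was called in neither genotype, with a difference of 0.10 in wild type (95% interval -0.52 to 0.72, adjusted p = 0.814) and 0.44 in transgenic (-0.18 to 1.06, adjusted p = 0.263). The transgenic interval reaches past 1, which is a doubling of FPKM + 1. The 2 partners of the receptor complex were therefore measured in different proportions with and without LPS. There were 0.0569 and 0.106 FPKM of Tlr4 per FPKM of Ly96 in untreated wild type, 0.161 and 0.274 with LPS, 0.114 and 0.0809 in untreated transgenic, and 0.236 and 0.195 in transgenic with LPS. Every LPS library was above every untreated library in this ratio, and Tlr4 stayed the rarer transcript of the pair in all 8.

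Tlr2 is the receptor for bacterial lipoproteins and acts as a pair with TLR1 or TLR6. It lies on chromosome 3 from 83836272 to 83841767, and its promoter window holds the GGGGAATTCCC and GGGACATCCC matches printed above. It was at 0.867 and 0.558 FPKM in untreated wild type and at 5.60 and 7.52 FPKM with LPS. The transgenic libraries were at 0.858 and 0.782 FPKM untreated and at 4.75 and 5.51 FPKM with LPS. No LPS library came near an untreated one, and both wild-type LPS libraries were above both transgenic ones. Tlr2 rose 9.20-fold in mean FPKM in wild type, a difference of 2.14 (SE 0.17, adjusted p = 0.000224), and 6.26-fold in transgenic, a difference of 1.75 (SE 0.17, adjusted p = 0.000554). The response differed between genotypes by -0.39 (SE 0.24, 95% interval -0.95 to 0.18), which was not called (limma, adjusted p = 0.6).

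**Figure D2:**
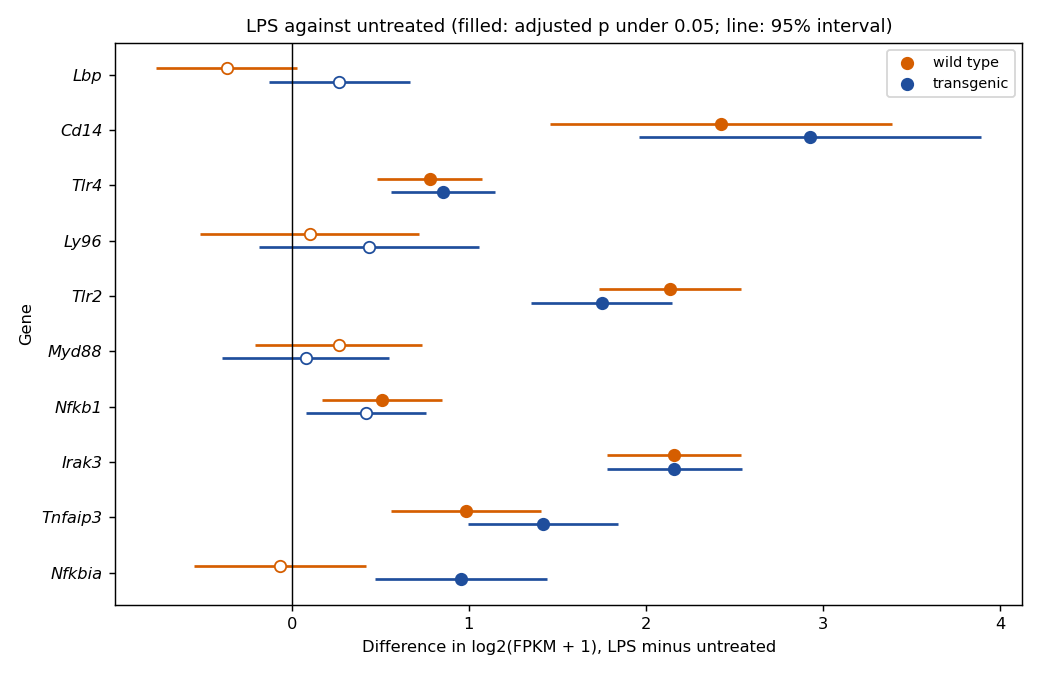
Difference between LPS and untreated liver in log2(FPKM + 1) for each of the 10 genes in wild type (orange) and transgenic (blue), with 95% limma intervals; filled points had an adjusted p under 0.05. Cd14, Tlr2 and Irak3 lie above 2 in wild type, and Nfkbia is at -0.06 in wild type and 0.95 in transgenic liver.

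Myd88, the adaptor of most Toll-like receptors, was at 12.7 and 7.89 FPKM in untreated wild type and at 12.3 and 12.2 FPKM with LPS. Its transgenic levels were 10.1 and 9.26 FPKM untreated and 10.2 and 10.4 FPKM with LPS. These ranges overlapped in wild type, where the untreated libraries were the highest and the lowest of all 8, and nearly touched in transgenic liver. It was called neither in wild type (0.26, SE 0.20, adjusted p = 0.387) nor in transgenic (0.08, SE 0.20, adjusted p = 0.811). The wild-type result rested on replicate 1 of untreated wild type, without which the difference was 0.58 and passed the limma test (adjusted p = 0.0217). Myd88 lies on chromosome 9 from 119335934 to 119341411, and its span overlaps that of Acaa1a, a peroxisomal thiolase gene on the opposite strand. It also overlaps the span of Slc22a14 on the same strand, where strand would not separate reads. Acaa1a was at 206 and 116 FPKM in untreated wild type, 124 and 113 FPKM in wild type with LPS, 169 and 142 FPKM in untreated transgenic and 101 and 82.7 FPKM in transgenic with LPS. Whether the authors' counting used strand is not given in the sources used here. Without it, reads of Myd88 and Acaa1a could not be told apart where exons of the 2 genes overlap. The part of Acaa1a or Slc22a14 in the Myd88 values was not tested.

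Nfkb1 encodes p105, the precursor of the p50 subunit of NF-kB, and lies on chromosome 3 from 135584655 to 135691547. It was measured at 7.19 and 6.46 FPKM in untreated wild type and at 9.78 and 10.5 FPKM with LPS. Among transgenic libraries it was at 8.12 and 6.82 FPKM untreated and at 11.0 and 9.65 FPKM with LPS. LPS libraries were above untreated ones in both genotypes, by similar amounts. The limma test called it in wild type (0.51, SE 0.15, adjusted p = 0.0431) but not in transgenic (0.42, SE 0.15, adjusted p = 0.0689), and the 2 responses differed by -0.09 (95% interval -0.56 to 0.39, adjusted p = 0.902). The wild-type call was close to the threshold and held in 9 of 17 alternatives. It was lost without replicate 2 of untreated wild type (adjusted p = 0.121), without replicate 1 or 2 of wild type with LPS (0.174 and 0.238), without replicate 1 or 2 of untreated transgenic (0.0699 and 0.0704), without both untreated libraries numbered 1 (0.0506), with no filter on low values (0.0513) and in a fit of the 2 wild-type groups alone (0.079). The untreated transgenic libraries do not enter the wild-type difference, which stayed at 0.51 without either of them, and only the pooled spread and its degrees of freedom changed. When each library was rescaled to the same FPKM sum, the transgenic response was 0.66 and was called (adjusted p = 0.0231).

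Irak3 encodes IRAK-M, the kinase-dead member of the IRAK family that is the classical marker of tolerized macrophages. It was at 0.610 and 0.441 FPKM in untreated wild type and at 4.93 and 6.80 FPKM with LPS. In transgenic liver it was at 0.371 and 0.338 FPKM untreated and at 5.31 and 4.82 FPKM with LPS. The lowest LPS library was several times above the highest untreated one. Irak3 rose 11.2-fold in mean FPKM in wild type and 14.3-fold in transgenic liver, the largest ratios among the members. On the log2 scale it rose by 2.16 in wild type (SE 0.16, adjusted p = 0.000203) and by 2.16 in transgenic (SE 0.16, adjusted p = 0.000316). The difference between these responses was 0.00 (SE 0.23), with a 95% interval from -0.53 to 0.54. The gene lies on chromosome 10 from 120141648 to 120202130, and its span overlaps that of Tmbim4 on the opposite strand. Tmbim4 was between 64.3 and 92.0 FPKM over the 8 libraries and was lower in each LPS library than in each untreated one.

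Irak3 was also set beside the transcripts of the signalling proteins that it restrains. There were 0.0480 and 0.0558 FPKM of Irak3 per FPKM of Myd88 in untreated wild type and 0.400 and 0.556 with LPS. In transgenic liver there were 0.0366 and 0.0365 untreated and 0.523 and 0.462 with LPS. Set beside Irak4, the kinase that starts the IRAK cascade, Irak3 was at 0.182 and 0.112 FPKM per FPKM in untreated wild type and at 1.27 and 1.52 with LPS, and at 0.0968 and 0.0826 in untreated transgenic and 1.51 and 1.09 with LPS. The inhibitor transcript was thus rarer than that of Irak4 in all 4 untreated libraries and more abundant in all 4 LPS libraries. It stayed rarer than Irak1, which was at 17.0 to 22.2 FPKM untreated and 16.5 to 17.2 FPKM with LPS, in all 8 libraries. Irak2 was at 6.31 to 8.65 FPKM untreated and 5.72 to 7.48 FPKM with LPS, above Irak3 in all untreated libraries and in 3 of the 4 LPS libraries. These kinases were chosen for the comparison after their values were seen.

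Tnfaip3 lies on chromosome 10 from 19000910 to 19015657, and its promoter window holds the GGGACACCCC and GGAAATCCCC matches. A20, its product, is an induced brake on NF-kB. It was at 1.29 and 1.38 FPKM in untreated wild type and at 2.85 and 4.55 FPKM with LPS. In transgenic liver it was at 1.18 and 1.20 FPKM untreated and at 4.64 and 5.10 FPKM with LPS. LPS and untreated libraries did not overlap, and both transgenic LPS libraries were above both wild-type ones. Tnfaip3 rose 2.77-fold in mean FPKM in wild type (0.98, SE 0.18, adjusted p = 0.00698) and 4.09-fold in transgenic (1.42, SE 0.18, adjusted p = 0.0015), and the responses differed by 0.44 (95% interval -0.16 to 1.04, limma adjusted p = 0.581). The wild-type call was lost with quantile normalization (0.67, adjusted p = 0.053) and without both untreated libraries numbered 1 (0.95, adjusted p = 0.0532).

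Nfkbia, on chromosome 12 from 55489410 to 55492647, had the largest estimated difference in LPS response between the genotypes. It was at 32.6 and 34.0 FPKM in untreated wild type and at 26.9 and 37.6 FPKM with LPS. In transgenic liver it was at 22.9 and 17.1 FPKM untreated and at 42.3 and 36.6 FPKM with LPS. The wild-type LPS libraries lay on either side of the untreated ones, while in transgenic liver the LPS libraries were well above. Nfkbia was at -0.06 in wild type (SE 0.21, 95% interval -0.55 to 0.42, adjusted p = 0.847), a direction that turned when libraries were rescaled to the same FPKM sum (0.19) or quantile normalized (0.05). It rose by 0.95 in transgenic liver (SE 0.21, adjusted p = 0.0146), or 1.97-fold in mean FPKM. That call was lost without replicate 2 of untreated transgenic (0.76, adjusted p = 0.108) and without replicate 1 of transgenic with LPS (0.85, adjusted p = 0.0767).

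The transgenic rise of Nfkbia began from a lower untreated level, and the levels with LPS overlapped between the genotypes. Untreated transgenic liver was at 20.0 ± 4.07 FPKM and untreated wild type at 33.3 ± 1.01 FPKM (SD, n = 2), without overlap, which is a ratio of 0.601. With LPS the transgenic mean was 39.4 ± 3.99 FPKM and the wild-type mean 32.2 ± 7.61 FPKM (SD, n = 2). The untreated difference was -0.72 (SE 0.21), with an unadjusted limma p of 0.00946 and an adjusted p of 0.616. The difference between the LPS responses was 1.02 (SE 0.30, 95% interval 0.33 to 1.71), with an unadjusted p of 0.00947 and an adjusted p of 0.418 in the same fit. Neither passed once adjusted over the 11463 features.

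Comparing the genotypes directly, 0 of the 10 members were called in untreated liver, where 0.0611% of all features were called, and 0 of 10 with LPS, where 0% were called and 1402 features had an unadjusted limma p under 0.05. These shares depend on single libraries. With LPS, 425 features were called without replicate 2 of transgenic with LPS and 21 without its replicate 1, and in untreated liver 44 in place of 7 were called without either of those libraries and 2 when untreated wild-type replicate 1 or either wild-type LPS library was dropped. The interaction, which is the LPS response in transgenic liver minus that in wild type, called 0 of 10 members and 0.00872% of all features (1 feature, against 279 without replicate 2 of transgenic with LPS, 6 without either untreated transgenic library and 0 without any one of the 4 wild-type libraries). No member was called in these 3 comparisons when any single library was left out. At an unadjusted limma p under 0.05 there was 1 member in untreated liver (Nfkbia), 1 with LPS (Lbp) and 2 in the interaction (Lbp and Nfkbia). For Cd14 the untreated genotype difference had a 95% interval from -1.09 to 0.84. For Tlr4 it ran from -0.30 to 0.29, on a scale that compresses differences of genes under 1 FPKM. The genotype and LPS comparisons use the same 8 libraries and are not independent of each other.

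**Figure D3:**
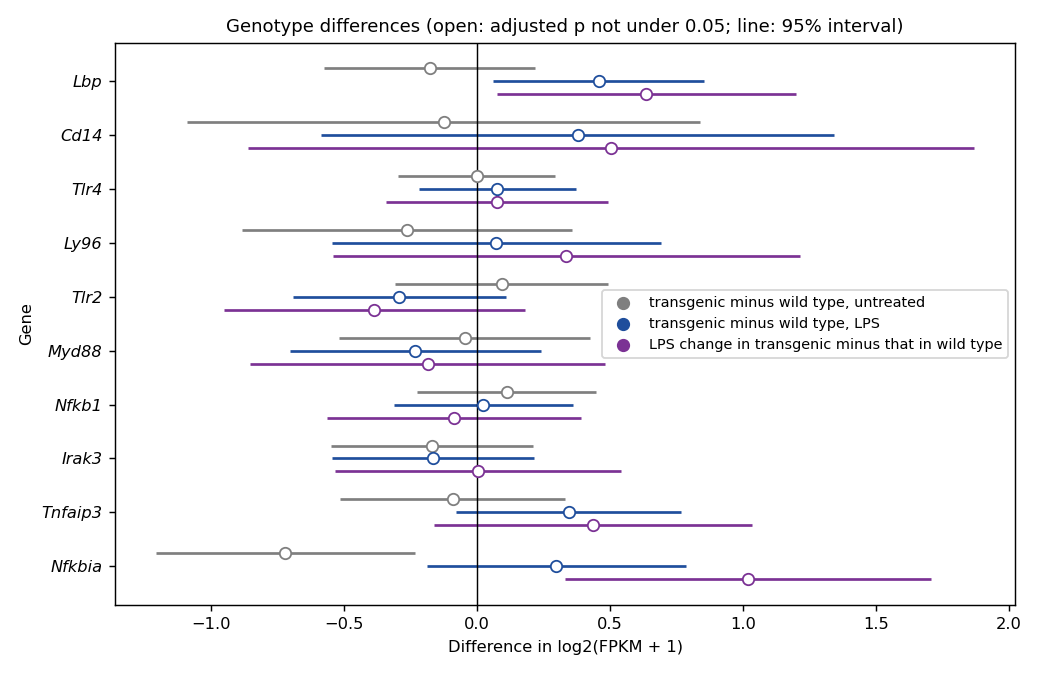
Genotype differences of the 10 genes in log2(FPKM + 1): transgenic minus wild type in untreated liver (gray) and with LPS (blue), and the LPS response in transgenic minus that in wild type (purple), with 95% limma intervals; open points had an adjusted p of at least 0.05, which was every point. The intervals that miss 0 are those of Nfkbia in untreated liver (-1.21 to -0.23), Lbp with LPS (0.06 to 0.85) and both genes in the response difference.

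The order of the members by level shifted with LPS. In untreated wild type the group means ran from Lbp (86.2 FPKM) through Nfkbia (33.3), Myd88 (10.3), Ly96 (7.83), Nfkb1 (6.82), Cd14 (3.86) and Tnfaip3 (1.33) to Tlr2 (0.713), Tlr4 (0.605) and Irak3 (0.526). The ranges of Myd88 and Ly96 overlapped, as did those of Ly96 and Nfkb1, and those of Tlr2, Tlr4 and Irak3. With LPS in wild type the order was Lbp (66.5 FPKM), Nfkbia (32.2), Cd14 (23.9), Myd88 (12.3), Nfkb1 (10.1), Ly96 (8.68), Tlr2 (6.56), Irak3 (5.86), Tnfaip3 (3.70) and Tlr4 (1.75). Cd14 thus passed Myd88, Ly96 and Nfkb1, while Tlr2 and Irak3 passed Tnfaip3 and left Tlr4 as the lowest member. The ranges of Nfkb1, Ly96, Tlr2 and Irak3 overlapped neighbour by neighbour in that order. In transgenic liver with LPS, Tlr4 was likewise the lowest at 1.90 ± 0.116 FPKM (SD, n = 2), and Lbp, Nfkbia and Cd14 were the highest at 91.8, 39.4 and 33.7 FPKM.

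The markers of macrophages and of other non-hepatocyte cells were higher in the same LPS libraries. Of 13 tested Kupffer cell and macrophage markers, 12 rose in each genotype, with a median of 2.57 in wild type and 2.49 in transgenic, beside -0.05 and -0.04 over all features. The share of all features called as higher was 16.2% and 16.0%. Adgre1, which encodes the macrophage surface protein F4/80, was at 6.69 and 3.40 FPKM in untreated wild type and at 118 and 106 FPKM with LPS. The summed level of the list was 164 to 305 FPKM in the 4 untreated libraries and 1402 to 1556 FPKM in the 4 LPS libraries. Cd68, also in the list, had values identical to those of another gene name and was left out of the counts and the sum. It was at 20.8 to 27.2 FPKM untreated and 39.2 to 49.4 FPKM with LPS. Clec4f, a lectin of mature mouse Kupffer cells named here after its values were seen, was the marker that was not called, at 24.2 to 42.3 FPKM untreated and 29.6 to 55.2 FPKM with LPS. None of the 13 markers was at 0 in every library, but Fcgr1 needed its LPS libraries to pass the filter on low values.

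Neutrophil markers rose in 9 of 9 tested cases in each genotype, and their summed level was 4.63 to 9.42 FPKM untreated and 187 to 366 FPKM with LPS. For this and the following lists, the share of all features called as higher was 16.2% in wild type and 16.0% in transgenic. Monocyte markers rose in 5 of 6 cases in each genotype. Their sum overlapped between treatments (64.2 to 82.9 FPKM untreated, 68.8 to 107 with LPS) and most of it came from Ly6c2, the marker that did not rise. Liver endothelial markers rose in 7 of 9 cases in each genotype (summed level 123 to 147 FPKM untreated, 307 to 336 with LPS), and stellate cell markers in 7 of 10 in wild type and 8 of 10 in transgenic (174 to 211 FPKM untreated, 375 to 490 with LPS). B and plasma cell markers rose in 7 of 8 cases in each genotype. The other, Xbp1, named after its values were seen, fell in transgenic liver, from 111 and 117 FPKM untreated to 68.6 and 76.0 FPKM with LPS. Only 2 of the 10 T and NK cell markers, Gzma and Nkg7, were tested. Both rose in both genotypes, although not both stayed called when some single libraries were left out. The rest, among them Cd3e, Cd3d, Cd3g, Cd4 and Cd8a, did not reach 1 FPKM in 2 libraries, so the list as a whole was not assessed. Without replicate 1 of untreated transgenic, 5 stellate markers were called in transgenic liver. Of 13 hepatocyte markers, 0 rose and 2 fell in wild type, and 1 rose and 1 fell in transgenic, beside 21.6% and 26.5% of all features called in either direction. Leaving out single libraries gave 0 to 6 called hepatocyte markers in wild type and 0 to 4 in transgenic. The summed hepatocyte level was 21470 to 33208 FPKM untreated and 20188 to 24349 FPKM with LPS, with Alb listed at 0 in all 8 libraries. All 5 monocyte markers and all 7 B and plasma cell markers that rose, and Gzma and Nkg7, reached 1 FPKM in fewer than 2 untreated libraries. So did the neutrophil markers Ngp, Camp, Mpo, Elane, Ltf, Csf3r and Mmp8. These needed LPS libraries to pass the filter on low values, so the counts favour markers that were high with LPS. The part of these cell types in the levels of the 10 genes was not tested.

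Set beside the macrophage list, the members fell into separate patterns. Cd14 was at 1.76 and 1.44 FPKM per 100 FPKM of the list in untreated wild type and at 1.40 and 1.71 with LPS, and at 1.30 and 1.31 in untreated transgenic and 3.25 and 1.48 with LPS. The Cd14 ratio overlapped between treatments in wild type, and so did that of Tlr2 in transgenic liver, where it was at 0.283 and 0.390 untreated and at 0.330 and 0.393 with LPS. In wild type Tlr2 was at 0.284 and 0.341 untreated and at 0.360 and 0.495 with LPS. Per unit of the summed list Irak3 was higher with LPS in both genotypes, at 0.200 and 0.269 untreated and 0.317 and 0.447 with LPS in wild type, and at 0.123 and 0.169 untreated and 0.369 and 0.344 with LPS in transgenic. It was the only member with every LPS library above every untreated library in the ratio to the sum, but the direction depends on the marker. Taken over each of the 13 markers singly, the Irak3 ratio was higher with LPS, without overlap, for 7 markers in wild type and 11 in transgenic, lower for 1 in each, and overlapping for the other 5 and 1. For Tlr2 it was higher for 7 and lower for 3 in wild type and higher for 4 and lower for 4 in transgenic, and for Cd14 higher for 4 and lower for 5 in wild type and higher for 8 and lower for 1 in transgenic.

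Tlr4 and Tnfaip3, which rose in FPKM, were lower beside the macrophage list with LPS. Tlr4 was at 0.171 and 0.420 FPKM per 100 FPKM of the list in untreated wild type and at 0.116 and 0.112 with LPS, and at 0.211 and 0.283 in untreated transgenic and 0.138 and 0.130 with LPS. Tnfaip3 was at 0.421 and 0.846 untreated and 0.183 and 0.299 with LPS in wild type, and at 0.391 and 0.597 untreated and 0.323 and 0.364 with LPS in transgenic. Myd88 was lower as well, at 4.16 and 4.82 in untreated wild type and 0.792 and 0.804 with LPS, and so were Ly96, Nfkb1, Nfkbia and Lbp. Over single markers the Tlr4 ratio was lower with LPS, without overlap, for 10 of 13 in each genotype and higher for 1, and the Tnfaip3 ratio was lower for 10 in wild type and 9 in transgenic and higher for 1 in each. These ratios describe the libraries and were not tested, and hepatocytes and other cells also express several of these genes.

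**Figure D4:**
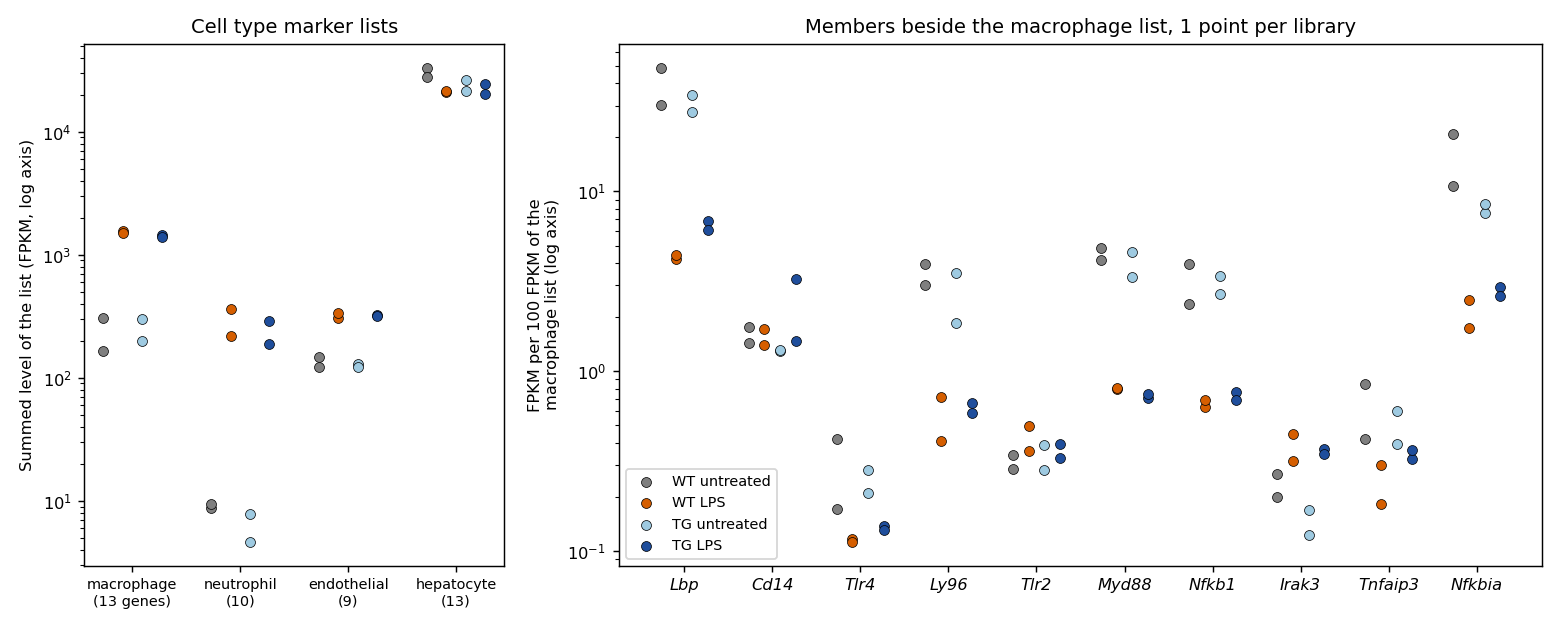
Left, summed FPKM of 4 cell type marker lists in each library (log axis); right, level of each of the 10 genes per 100 FPKM of the macrophage list in each library (log axis). The macrophage sums run from 164 to 305 FPKM untreated and from 1402 to 1556 FPKM with LPS, and Irak3 is the gene whose LPS points all lie above its untreated points in both genotypes.

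Other genes of the pathway were counted in lists by role. Among 14 other pattern recognition receptors and their partners, 10 rose and 0 fell in wild type (median 1.28), and 9 rose and 1 fell in transgenic (median 1.10). Beside these, 16.2% and 16.0% of all features tested were called as higher. Ly86, which encodes MD-1, the MD-2 relative that pairs with the TLR4-like protein CD180, was at 3.81 and 3.11 FPKM in untreated wild type and 29.2 and 26.5 FPKM with LPS (difference 2.70, adjusted p = 0.000117). In transgenic liver Ly86 was at 4.08 and 3.07 FPKM untreated and 26.4 and 24.4 FPKM with LPS (difference 2.54, adjusted p = 0.000232). Both LPS groups were far above both untreated groups. Tlr1, the partner of Tlr2, rose by 2.64 in wild type and 2.03 in transgenic liver, and Cd180 by 2.08 and 1.23. Tlr5, the flagellin receptor, chosen after its values were seen, was the 1 receptor that fell in transgenic liver, by 0.96 (adjusted p = 0.00526), and was at -0.43 in wild type (adjusted p = 0.106). Tlr1, Tlr6, Tlr7, Tlr8, Tlr9, Tlr13 and Cd180 reached 1 FPKM in fewer than 2 untreated libraries. They needed LPS libraries to pass the filter on low values, which favours genes that were high with LPS. A filter of 5 FPKM left 5 receptors called in wild type and 3 in transgenic.

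Of 21 tested adaptors and kinases between the receptors and NF-kB, 1 rose and 1 fell in wild type (median -0.16), and 3 rose and 3 fell in transgenic (median -0.05), beside medians of -0.05 and -0.04 over all features and the 21.6% and 26.5% of all features called. Ikbke, an inducible kinase related to the IkB kinases, rose by 1.14 and 0.82 in the 2 genotypes (adjusted p = 0.00364 in wild type, 0.0162 in transgenic). Ikbkg, which encodes the regulatory subunit NEMO, fell by 0.87 in wild type (adjusted p = 0.00635) and by 0.54 in transgenic (adjusted p = 0.042). Map3k8, the kinase TPL2 that is held by p105, rose by 0.98 in transgenic (adjusted p = 0.0226) and was at 0.77 in wild type (adjusted p = 0.0585). The number called in this list, 2 in wild type and 6 in transgenic, was not stable. In wild type it was 4 when libraries were rescaled to the same FPKM sum and 5 with quantile normalization, and in transgenic it was 3 with no filter or a filter of 5 FPKM and 2 in a fit of the transgenic groups alone. Leaving out single libraries moved it to 5 in wild type without replicate 1 of untreated wild type and to 1 without its LPS replicate 1. In transgenic liver the number was 2 without either wild-type LPS library and 1 without either untreated transgenic library or without replicate 1 of transgenic with LPS.

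Of the 8 other NF-kB subunits and IkB proteins tested, 2 rose in wild type (median 0.29) and 1 in transgenic (median 0.37), and none fell. Over all features tested, 16.2% in wild type and 16.0% in transgenic were called as higher, so these counts do not set the list apart. Relb, a subunit of the alternative NF-kB pathway, was at 1.23 and 0.556 FPKM in untreated wild type and 4.31 and 3.97 FPKM with LPS (difference 1.46, adjusted p = 0.00122). In transgenic liver it was at 1.18 and 1.16 FPKM untreated and 2.95 and 2.43 FPKM with LPS (difference 0.76, adjusted p = 0.0222). Nfkbie, which encodes IkB epsilon, rose by 0.99 in wild type (adjusted p = 0.0127) and was at 0.57 in transgenic (adjusted p = 0.084). The number called in wild type was 4 without replicate 1 of untreated wild type, 1 without either wild-type LPS library, 1 with quantile normalization and 0 with a filter of 5 FPKM. In transgenic liver it was 5 without replicate 2 of untreated wild type, 3 without replicate 1 of untreated wild type, and 0 without either untreated transgenic library or without replicate 1 of transgenic with LPS. It was 3 with no filter or when rescaled, 2 in a fit of the transgenic groups alone, and 0 with quantile normalization or a filter of 5 FPKM.

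Of 21 other negative regulators of Toll-like receptor signalling, 6 rose and 2 fell in wild type (median 0.13), and 8 rose and 1 fell in transgenic (median 0.26). The shares over all features were 16.2% and 16.0% higher, and 21.6% and 26.5% called in either direction. Irak3 and Tnfaip3 were not counted among these 21, and Il10 and Pdlim2 needed LPS libraries to pass the filter on low values. Tgfb1, which encodes the cytokine TGF-beta 1, rose by 2.27 in wild type and by 1.62 in transgenic (adjusted p = 0.000602 and 0.00331). Inpp5d, which encodes the lipid phosphatase SHIP-1 of blood cells, rose by 1.97 and 1.82 (adjusted p = 0.000224 and 0.000387). Dusp1, a phosphatase of MAP kinases, was at 23.2 and 13.4 FPKM in untreated wild type and 16.5 and 22.8 FPKM with LPS, which was not called. In transgenic liver Dusp1 rose from 15.4 and 10.2 FPKM to 58.6 and 29.0 FPKM (difference 1.64, adjusted p = 0.0193), and as with Cd14 the highest value was in replicate 1 with LPS. In wild type 5 regulators in place of 8 were called with quantile normalization, with a filter of 5 FPKM, without either wild-type LPS library or without either untreated transgenic library, and in transgenic 5 in place of 9 without replicate 2 of untreated transgenic.

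The list of LPS uptake and detoxification had larger medians than the signalling lists, a difference that was not tested. Of 10 tested, 7 rose and 1 fell in each genotype, with medians of 1.57 in wild type and 1.67 in transgenic. Over all features, 16.2% and 16.0% were called as higher. Marco, a scavenger receptor of macrophages, went from 9.72 and 1.58 FPKM in untreated wild type to 388 and 442 FPKM with LPS, and from 8.17 and 3.52 FPKM in untreated transgenic to 349 and 372 FPKM with LPS. Aoah, the enzyme acyloxyacyl hydrolase that removes fatty acids from LPS and inactivates it, went from 0.540 and 0.204 FPKM to 15.3 and 14.3 FPKM in wild type and from 0.414 and 0.320 FPKM to 12.6 and 13.2 FPKM in transgenic. No LPS library overlapped an untreated one for either gene. Aoah was under 1 FPKM in every untreated library and passed the filter on low values through its LPS libraries alone. On the log2 scale Marco rose by 6.30 and 5.81 (adjusted p = 0.000361 and 0.000661), and Aoah rose by 3.54 and 3.35 (adjusted p = 0.000117 and 0.000186). Alpl, an alkaline phosphatase that can dephosphorylate LPS, chosen after its values were seen, was the gene that fell in both, by 0.56 and 0.62 (adjusted p = 0.029 and 0.018).

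Among 20 inflammatory cytokine and effector targets of LPS, 11 passed the filter on low values, and 6 of these rose in wild type and 7 in transgenic, with none falling. The share called as higher over all features was 16.2% in wild type and 16.0% in transgenic. The 9 that did not pass it included Tnf and Il6, both named here after their values were seen. Tnf was at 0.0831 and 0 FPKM in untreated wild type, 0.592 and 0.413 FPKM with LPS, 0.299 and 0.0450 FPKM in untreated transgenic and 0.481 and 0.251 FPKM with LPS. Il6 was at 0.175 FPKM or lower in all 8 libraries. Among those that rose, Ccl5, a chemokine for T cells and monocytes, was at 2.70 and 1.40 FPKM in untreated wild type and 13.8 and 16.4 FPKM with LPS, and at 3.98 and 0.925 FPKM in untreated transgenic and 19.7 and 31.8 FPKM with LPS (differences 2.43 and 3.07, adjusted p = 0.00654 and 0.00254). Acod1, which makes the macrophage metabolite itaconate, rose by 1.78 in wild type and 2.09 in transgenic (adjusted p = 0.00235 and 0.0013). Acod1 and Ccl3 were under 1 FPKM in every untreated library and passed the filter through LPS libraries alone. Il1b, the precursor of interleukin 1 beta, rose by 1.62 and 1.63 (adjusted p = 0.0282 and 0.0249). The harvest time after the last of the daily injections is not given in the sources used here, so these cytokine levels belong to an unstated point in the response. In transgenic liver 4 targets were called without replicate 2 of untreated transgenic.

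**Figure D5:**
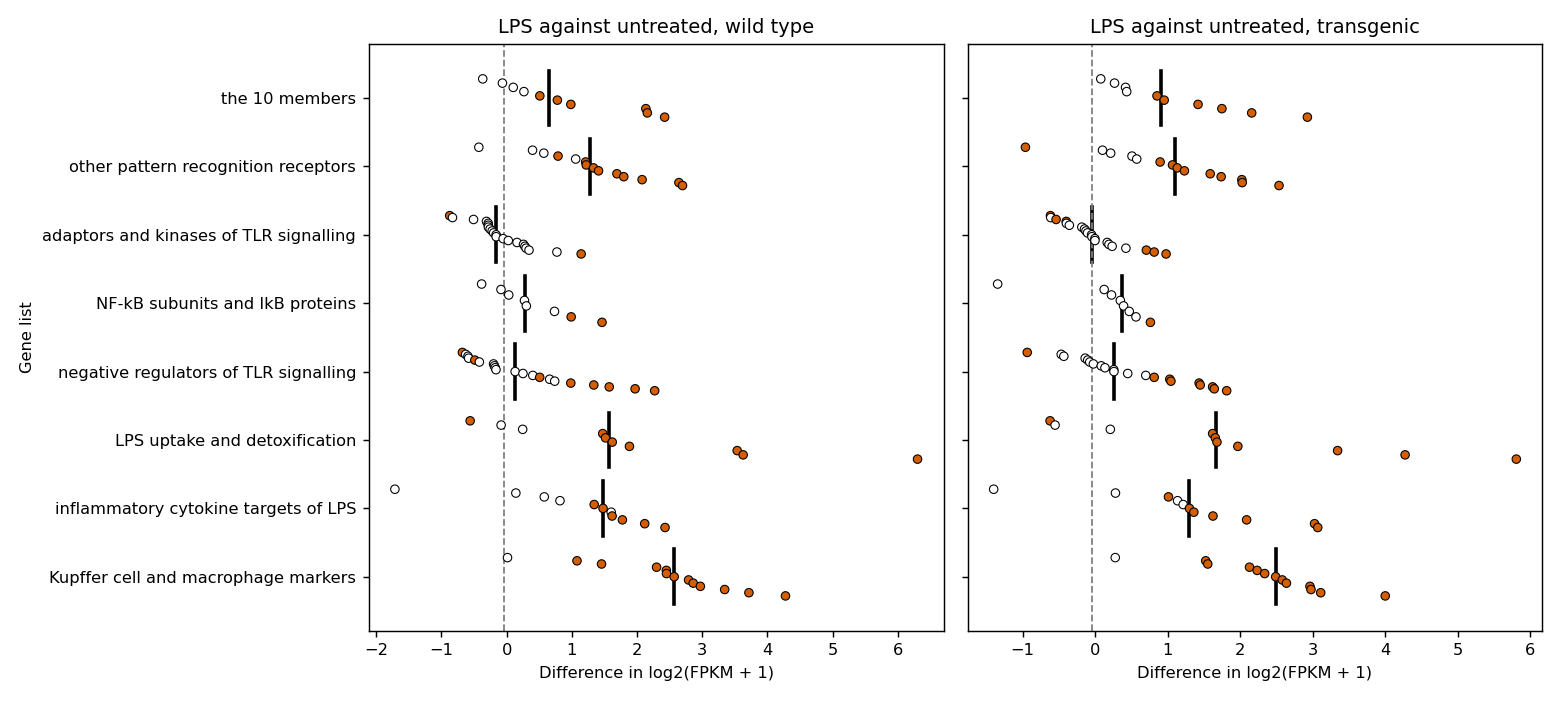
Difference between LPS and untreated liver in log2(FPKM + 1) for each tested gene of 8 lists, in wild type (left) and transgenic (right); filled points had a limma adjusted p under 0.05, thick bars are list medians and the dashed line is the median of all features tested. The adaptors and kinases sit around the dashed line (medians -0.16 and -0.05), while the uptake genes and macrophage markers have medians of 1.57 and 2.57 in wild type.

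The direction of the called members did not depend on the scaling, but the shift of the whole table did. Rescaling every library to the same FPKM sum moved the median LPS difference of all features from -0.05 to 0.18 in wild type and from -0.04 to 0.16 in transgenic. Of the features called in wild type, 75.0% were higher with LPS in the values as deposited, 95.0% after rescaling and 63.4% after quantile normalization. In transgenic these shares were 60.4%, 78.3% and 55.8%. Cd14, Tlr2 and Irak3 were called in all 17 alternatives in both genotypes.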

How the data were processed

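RNA from 8 whole-liver samples was made into libraries with the Illumina TruSeq Stranded mRNA kit, per the labels' protocols. The authors deposited 1 table of FPKM values with a column per library; the submitters' processing notes name TopHat2 2.1.0, Bowtie2 2.2.6, Cufflinks, Cuffdiff 2.2.1 and mm10, while annotation, strand setting and library scaling are not stated there. All 8 columns matched a sample (0 left over). Of repeated names the row with the highest sum was kept (639 rows dropped), names with identical values were joined into 1 feature (549 sets), 27 rows named as dates were kept unnamed, and 6197 rows were 0 throughout.

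The 11463 features that reached 1 FPKM in 2 or more of the 8 libraries (all 10 members among them) were fitted as log2(FPKM + 1) in limma 3.58.1 under R 4.3.3, with 1 mean per group, trend moderation, 4 residual degrees of freedom and a median prior of 3.59. Tlr4, Tlr2 and Irak3 passed that filter through their LPS libraries alone. Comparisons were LPS in each genotype, genotype in each treatment and the interaction. Each p-value sets a difference against the spread between libraries within groups, pooled over the groups of the fit and moderated over features. The script was tested on simulated data. Joined features counted in a list only if all their names were in it. The rule for named genes took all members and, per list and LPS comparison, the 4 called genes with the largest difference or, with none called, the 2 most abundant. Members, lists and tests were chosen with earlier results of these data known. Positions are from GENCODE vM21 (GRCm38) and promoter windows from RefSeq (GRCm38.p6).

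The alternatives tried were no filter, a filter of 5 FPKM, a pseudocount of 0.1, rescaling to an equal FPKM sum, quantile normalization, robust moderation, a replicate block, a fit of only the groups compared, and leaving out each library or both untreated libraries numbered 1. Leaving out a library leaves its group with 1, and the spread is then taken from the other groups of the fit. Count tests were not run.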

Additional observations from a re-analysis of the deposited data

How the results depend on the processing

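The number of members called stayed between 4 and 7 of 10 in both LPS comparisons under every alternative run, and at 0 in the genotype comparisons and the interaction. The lowest values came with a filter of 5 FPKM, which removes members, and, in wild type, with quantile normalization. Without both untreated libraries numbered 1 there were 5 in wild type and 6 in transgenic. Leaving out single libraries gave 5 to 7 in wild type and 5 to 6 in transgenic. Replicate numbers are shared between the groups, but with 2 pairs and no label that ties a number to a litter or day they were not read as pairs. The correlation of replicate deviations was 0.459 between the 2 untreated groups and 0.043 to 0.189 between the other pairs of groups. With the number as a replicate block, 6 members were called in each genotype, as without it, and the block changed no member's call. It called 4 in place of 2 of the adaptors and kinases in wild type. Leaving out a library of a group that is not compared keeps each difference and alters only the pooled spread and its degrees of freedom. The number of all features called moved with single libraries: from 2481 to 1244 in wild type without its LPS replicate 1 and to 1376 without replicate 2, and from 3034 to 1497 and 1238 in transgenic without its untreated replicates 1 and 2 and to 1603 without its LPS replicate 1. Between genotypes it went from 7 to 44 untreated without either transgenic LPS library, from 0 to 425 and 21 with LPS without transgenic LPS replicates 2 and 1, and from 1 to 279 in the interaction without transgenic LPS replicate 2. The cause was not tested.

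Directions turned only for members that were not called. In the LPS response of wild type, Nfkbia (-0.06) was at 0.19 when rescaled and 0.048 with quantile normalization, and leaving out single libraries gave -0.30 to 0.17 for Nfkbia, -0.28 to 0.48 for Ly96 and -0.048 to 0.578 for Myd88. In untreated liver, transgenic minus wild type, Tlr4 was at 0.003 with a pseudocount of 0.1 and 0.071 when rescaled, and Myd88 at 0.078 when rescaled. Without both untreated libraries numbered 1, Cd14 was at 0.12, Ly96 at 0.10 and Myd88 at 0.21. Leaving out single libraries gave -0.59 to 0.34 for Cd14, -0.36 to 0.27 for Myd88, -0.037 to 0.224 for Tlr2, -0.075 to 0.073 for Tlr4 and -0.49 to -0.04 for Ly96. With LPS the same ranges were -0.19 to 0.94 for Cd14, -0.365 to 0.031 for Irak3, -0.30 to 0.45 for Ly96 and -0.062 to 0.110 for Nfkb1. In the interaction they were -0.061 to 1.071 for Cd14, -0.20 to 0.20 for Irak3, -0.041 to 0.713 for Ly96, -0.50 to 0.13 for Myd88 and -0.198 to 0.024 for Nfkb1. Without both untreated libraries numbered 1 the interaction was -0.026 for Ly96 and -0.06 for Irak3. The cause was not tested. With 2 libraries per group and unknown depth, differences of members near or under 1 FPKM (Tlr4, Tlr2 and Irak3 untreated) carry a counting error that could not be given.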
